A study of Mus musculus with 2 samples.

Results

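The 40 genes described here belong to the G2 phase and mitosis module of the cell cycle. They were taken by symbol from a fixed list, and all 40 were present in both matrices, out of 27998 gene identifiers measured. The material was mouse leukaemia cells that carry the MLL-AF9 fusion oncoprotein and the nuclease Cas9 and that were grown with 10 ng/ml mouse interleukin-3. The Jumonji library came from cells with a single guide RNA against the stretch of Jmjd1c that encodes the Jumonji domain, the catalytic fold of this histone demethylase family. The Renilla library came from cells with a control guide against Renilla luciferase, a gene that mice lack. The MLL-AF9 fusion, Cas9 and the culture medium were common to both libraries, and the labels do not say whether either culture was 1 clone or a pool. Each condition was represented by 1 library, so no difference below has a replicate check, no test was made, and all intervals cover counting error only.

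Cells enter mitosis when Cdk1, bound to a cyclin, phosphorylates structural proteins of the nucleus, the chromosomes and the spindle. Kinetochores then attach chromosomes to microtubules, and the anaphase-promoting complex starts chromosome separation by marking securin and cyclin B for destruction, before a contractile ring divides the cell. Most genes of the module are transcribed in a wave that climbs through G2 and ends with mitosis, so their transcripts mark dividing cells in proliferating leukaemia and in bone marrow progenitors, and they decline when myeloid cells mature and leave the cycle. Many of their promoters are known to carry a CCAAT box and a cell cycle homology region (CHR), elements bound by NF-Y and by the DREAM and MuvB complexes.

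Promoters of 8 members are shown because these genes stood high or low in the Jumonji library or had many UMIs. Each line gives the 120 bases upstream of the annotated start, 5′ to 3′ on the gene's strand, from RefSeq on GRCm38.p6. Capitals mark the CHR (TTTGAA, or TTCAAA on the other strand) and the CCAAT box (CCAAT, or ATTGG on the other strand).
Cdk1: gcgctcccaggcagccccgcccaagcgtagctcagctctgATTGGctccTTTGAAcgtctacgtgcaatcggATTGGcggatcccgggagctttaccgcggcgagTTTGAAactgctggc
Cks1b: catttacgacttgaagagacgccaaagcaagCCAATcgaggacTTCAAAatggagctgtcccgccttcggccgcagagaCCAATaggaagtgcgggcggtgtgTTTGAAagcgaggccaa
Cks2: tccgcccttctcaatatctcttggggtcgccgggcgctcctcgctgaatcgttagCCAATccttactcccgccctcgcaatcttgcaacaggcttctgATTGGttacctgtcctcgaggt
Cdc20: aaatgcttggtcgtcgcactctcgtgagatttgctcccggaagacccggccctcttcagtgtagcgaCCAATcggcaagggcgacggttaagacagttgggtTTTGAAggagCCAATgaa
Ube2c: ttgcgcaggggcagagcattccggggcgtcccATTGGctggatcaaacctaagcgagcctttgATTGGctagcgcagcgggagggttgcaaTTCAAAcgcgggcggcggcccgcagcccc
Hmgb2: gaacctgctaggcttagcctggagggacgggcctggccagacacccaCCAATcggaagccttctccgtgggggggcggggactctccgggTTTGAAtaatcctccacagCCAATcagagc
Top2a: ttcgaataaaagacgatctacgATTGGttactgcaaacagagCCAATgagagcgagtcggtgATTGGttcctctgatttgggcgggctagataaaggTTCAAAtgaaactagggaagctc
Nusap1: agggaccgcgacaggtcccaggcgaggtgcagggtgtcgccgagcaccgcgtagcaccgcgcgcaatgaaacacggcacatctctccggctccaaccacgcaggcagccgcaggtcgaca
The Cdk1 stretch (chr10:69352913-69353032, minus strand), the Cks1b stretch (chr3:89418292-89418411, minus strand), the Top2a stretch (chr11:99024190-99024309, minus strand), the Cdc20 stretch (chr4:118437344-118437463, minus strand), the Ube2c stretch (chr2:164769809-164769928, plus strand) and the Hmgb2 stretch (chr8:57511723-57511842, plus strand) held both motifs. The Cks2 stretch (chr13:51645112-51645231, plus strand) held CCAAT boxes and no CHR. The Nusap1 stretch (chr2:119618178-119618297, plus strand) held neither.

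RefSeq gave a promoter for 34 of the 40 members. In the 250 bases upstream of the start, 13 of the 34 (38.2%) held a CHR, against 16.0% of all 32851 promoters. A CCAAT box was found in 25 (73.5%), against 33.8% of all promoters. Both motifs were found in 12 (35.3%), against 5.55% of all promoters. A promoter counted once per motif whatever its number of matches, matches could share bases, and a match is a description of the letters. Hmgb2, higher in the Jumonji library, and Cks1b and Cdc20, lower there, all held both motifs.

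After filtering, the Jumonji library had 575 cells with 12809661 UMIs and the Renilla library had 608 cells with 14418743 UMIs. UMIs are unique molecular identifiers, tags that count single RNA molecules, here at the 3′ end of the transcript. The median cell had 22123 UMIs in the Jumonji library and 23528 UMIs in the Renilla library. No barcode was shared between libraries. Blood cell markers were present (Ptprc, Spi1, Cd34 and Kit summed to 1230 CPM in the Jumonji library and 797 CPM in the Renilla library, where CPM is the UMIs of a gene per 1000000 UMIs of the library). Lymphoid markers (Cd3e and Ms4a1 at 0), erythroid markers (Hbb-bs and Car1 at 0) and stromal markers summed to 2.03 to 28.1 CPM in the Jumonji library and 2.98 to 27.5 CPM in the Renilla library. The targeted gene Jmjd1c was measured at 112 CPM in the Jumonji library and 140 CPM in the Renilla library, a level that does not check editing. All 12 of a late list, including Ctss and S100a8, stood 1.5-fold or more above Renilla in the Jumonji library, and all 5 primary granule genes, including Mpo and Elane, were at least 1.5-fold lower.

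The module as a whole differed little between the libraries. Summed over the 40 members, its level was 5496 CPM in the Jumonji library and 5145 CPM in the Renilla library, a log2 ratio of 0.10 (95% counting interval 0.08 to 0.11). A single gene, Hmgb2, supplied 33.3% of the member UMIs in the Jumonji library and 26.8% in the Renilla library. Without Hmgb2 the sum was 3665 CPM in the Jumonji library and 3767 CPM in the Renilla library, a log2 ratio of -0.04 (-0.06 to -0.02), which became 0.02 when set against the median of all genes. The median log2 ratio over the 40 members was -0.08, with 18 members above 0 and 22 below. Over all 8959 genes with at least 100 UMIs the median was -0.06, and 56.2% were below 0. All 40 members passed that minimum.

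Counted by size, 3 members (7.5%) had a log2 ratio more than 0.32 above 0, the smaller of the folds counted here, against 19.5% of all genes. Another 7 members (17.5%) were more than 0.32 below 0, against 23.5% of all genes. At 1.5-fold, no member was higher, against 9.91% of all genes, and 1 member (2.5%) was lower, against 7.89% of all genes. The 3 higher members were Nusap1, Hmgb2 and Ndc80, and the 7 lower ones were Sapcd2, Cdc20, Cks1b, Kif2c, Cenpf, Aspm and Ccnb1. Other treatments of the cells moved these counts (7 higher and 4 lower without the most mature cells), and the sign of 28 of the 40 members was the same under all 7 alternatives run for single members. Among these, the mean over the maturation bands described below holds, for some members, ratios from bands with 0 or few UMIs in 1 library.

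**Figure D1:**
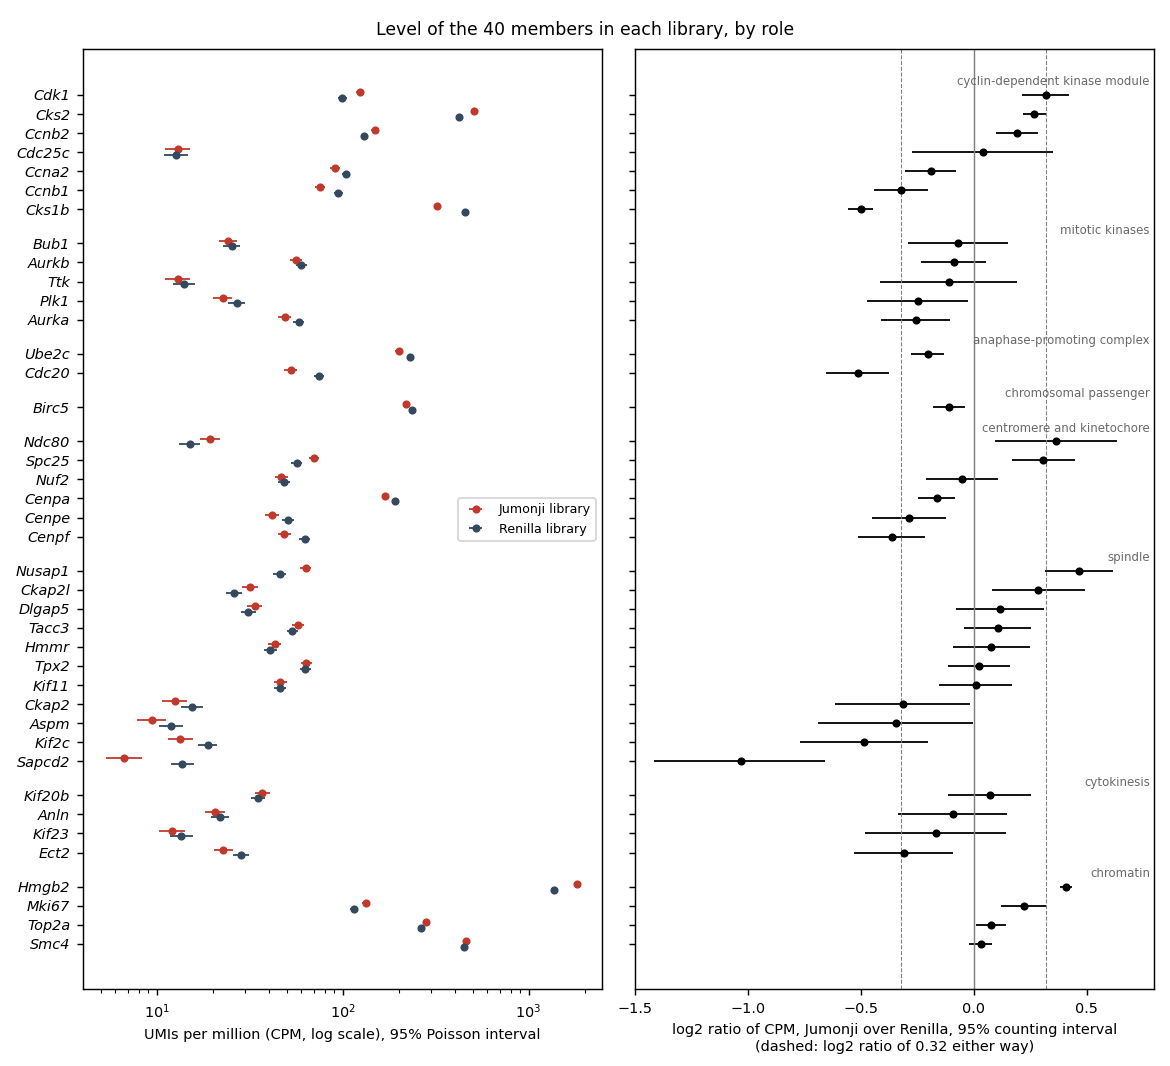
Level of each member in CPM in the Jumonji and Renilla libraries (left, log axis, 95% Poisson intervals) and the log2 ratio of the libraries (right, 95% counting intervals), grouped by role. Most ratios lie within 0.32 of 0, marked by dashed lines, and Sapcd2 stands farthest out at -1.03.

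Within the cyclin-dependent kinase module, the genes split. Cdk1 (ENSMUSG00000019942, chromosome 10, 69335146 to 69352938, minus strand, GENCODE on GRCm38), the kinase that drives entry into mitosis, had 1593 UMIs, or 124 CPM, in the Jumonji library and 1437 UMIs, or 99.7 CPM, in the Renilla library. Its log2 ratio was 0.32 (0.22 to 0.42), just short of the smaller fold. Its partner cyclins lay on both sides. Ccnb2 was at 149 CPM in the Jumonji library and 131 CPM in the Renilla library (log2 ratio 0.19, 0.10 to 0.28). Ccnb1, the cyclin whose destruction ends mitosis, was at 75.8 CPM in the Jumonji library and 94.8 CPM in the Renilla library (-0.32, -0.44 to -0.20). Ccna2, the cyclin of S phase and G2, was at 91.2 CPM in the Jumonji library and 104 CPM in the Renilla library (-0.19, -0.30 to -0.08). The cyclins thus had ratios of both signs around a kinase gene that stood higher.

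The small kinase-binding subunits Cks2 and Cks1b, which are paralogues, were the clearest opposite pair. Cks2 had 6509 UMIs, or 508 CPM, in the Jumonji library and 6085 UMIs, or 422 CPM, in the Renilla library, a log2 ratio of 0.27 (0.22 to 0.32). Cks1b (ENSMUSG00000028044, chromosome 3, 89415472 to 89418383, minus strand), which also helps the SCF ubiquitin ligase recognise the cell cycle inhibitor Cdkn1b, had 4134 UMIs, or 323 CPM, in the Jumonji library and 6587 UMIs, or 457 CPM, in the Renilla library, a log2 ratio of -0.50 (-0.56 to -0.44). Both signs held under every alternative run for single members, with Cks2 between 0.26 and 0.34 and Cks1b between -0.74 and -0.34. Cdc25c, the phosphatase that activates Cdk1, differed by less than its counting interval (13.0 CPM in the Jumonji library and 12.7 CPM in the Renilla library). The 7 genes together had a log2 ratio of -0.04, or 0.02 against the median of all genes.

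All 5 mitotic kinases had ratios below 0, as had 56.2% of all genes, and all were small. Aurka, which organises spindle poles, was at 48.7 CPM in the Jumonji library and 58.3 CPM in the Renilla library (-0.26, -0.41 to -0.11). Plk1, which acts on centrosomes, kinetochores and cytokinesis, was at 22.6 CPM in the Jumonji library and 26.9 CPM in the Renilla library (-0.25, -0.47 to -0.03). Aurkb, the kinase of the chromosomal passenger complex, was at 56.3 CPM in the Jumonji library and 59.9 CPM in the Renilla library. Its interval (-0.23 to 0.06) held 0, as did those of the checkpoint kinases Bub1 (-0.07) and Ttk (-0.11). The 5 kinases summed to 165 CPM in the Jumonji library and 184 CPM in the Renilla library. This gave a log2 ratio of -0.16 (-0.25 to -0.08), or -0.10 against the median of all genes. Bub1 was above 0 when cells were thinned to equal depth and without the most mature cells. Its mean over maturation bands was also above 0, but held a band with 0 UMIs in Jumonji cells and is not read.

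Among all genes 56.2% had ratios below 0, and so had both genes that serve the anaphase-promoting complex. Cdc20 (ENSMUSG00000006398, chromosome 4, 118432901 to 118437352, minus strand), its mitotic activator and the target of the spindle checkpoint, had 672 UMIs, or 52.5 CPM, in the Jumonji library and 1080 UMIs, or 74.9 CPM, in the Renilla library, a log2 ratio of -0.51 (-0.65 to -0.37). Ube2c, its ubiquitin-conjugating enzyme, was at 200 CPM in the Jumonji library and 230 CPM in the Renilla library (-0.20, -0.28 to -0.13). Birc5 (survivin), a subunit of the chromosomal passenger complex, was at 219 CPM in the Jumonji library and 236 CPM in the Renilla library (-0.11, -0.18 to -0.04). Cdc20, Ube2c, Ccna2, Cdc25c, Nusap1 and Tacc3 each overlap a protein-coding gene on the other strand. The strand setting of the counting is not given in the sources used here, so a part of their counts could belong to the partner.

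The kinetochore genes also divided. Spc25 and Ndc80, subunits of the Ndc80 complex that holds microtubules, were higher. Spc25 was at 70.3 CPM in the Jumonji library and 56.8 CPM in the Renilla library (0.31, 0.17 to 0.45), and Ndc80 was at 19.4 CPM in the Jumonji library and 15 CPM in the Renilla library (0.36, 0.09 to 0.63). Nuf2, a subunit of the same complex, was at 46.8 CPM in the Jumonji library and 48.5 CPM in the Renilla library, a difference within its interval (-0.21 to 0.11). The proteins of the fibrous corona were lower. Cenpf was at 48.6 CPM in the Jumonji library and 62.5 CPM in the Renilla library (-0.36, -0.51 to -0.21), and the kinesin gene Cenpe was at 41.8 CPM in the Jumonji library and 51.0 CPM in the Renilla library (-0.29, -0.45 to -0.12). Cenpa, the histone H3 variant of centromeres, was at 170 CPM in the Jumonji library and 190 CPM in the Renilla library (-0.17, -0.25 to -0.08). Its mean over the 5 maturation bands described below was 0.16. That mean rests on 12 UMIs in Jumonji cells of band 1 and 7 UMIs in Renilla cells of band 5, and is not read.

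Of the 11 spindle genes, 7 had ratios above 0 and 4 below, against 3921 and 5038 of all 8959 genes. The extremes of the whole module lay among the spindle genes. Nusap1 (ENSMUSG00000027306, chromosome 2, 119618298 to 119651244, plus strand), which bundles spindle microtubules, had 812 UMIs, or 63.4 CPM, in the Jumonji library and 662 UMIs, or 45.9 CPM, in the Renilla library, the highest member ratio at 0.47 (0.32 to 0.62). Sapcd2 (ENSMUSG00000026955, chromosome 2, 25372321 to 25378213, plus strand), a regulator of spindle orientation, had 86 UMIs, or 6.71 CPM, in the Jumonji library and 198 UMIs, or 13.7 CPM, in the Renilla library, a log2 ratio of -1.03 (-1.41 to -0.66). It was detected in 10.4% of the Jumonji and 23.2% of the Renilla cells, and its ratio ranged from -1.06 to -0.12 over the alternatives. The -0.12 was the mean over maturation bands. That mean holds a value of 2.25 from band 1, where 0 UMIs in Jumonji cells were set to 3, against 9 UMIs in Renilla cells. Kif2c, a kinesin that takes microtubules apart, was at 13.4 CPM in the Jumonji library and 18.8 CPM in the Renilla library (-0.49, -0.77 to -0.20). Ckap2l, a microtubule-associated protein, was at 31.9 CPM in the Jumonji library and 26.1 CPM in the Renilla library (0.28, 0.08 to 0.49).

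The remaining spindle genes and those of cytokinesis had ratios from -0.35 to 0.11. Kif11, the motor that pushes spindle poles apart, was at 46.3 CPM in the Jumonji library and 46.1 CPM in the Renilla library. Tpx2, an activator of Aurora A, was at 63.9 CPM in the Jumonji library and 63.0 CPM in the Renilla library. Tacc3, Hmmr and Dlgap5 had log2 ratios between 0.08 and 0.11, each with an interval holding 0, while Ckap2 (-0.31) and Aspm (-0.35) were counted at 224 UMIs or fewer in each library. Of the cytokinesis genes, Ect2, which activates RhoA at the cell equator, was at 22.9 CPM in the Jumonji library and 28.4 CPM in the Renilla library (-0.31, -0.53 to -0.09). Anln, Kif23 and Kif20b had log2 ratios of -0.09, -0.17 and 0.07, each within its interval.

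All 4 chromatin genes had ratios above 0, as had 3921 of all 8959 genes. Hmgb2 (ENSMUSG00000054717, chromosome 8, 57511907 to 57515999, plus strand, GENCODE on GRCm38), a DNA-bending protein of the HMG box family, had 23454 UMIs, or 1831 CPM, in the Jumonji library and 19872 UMIs, or 1378 CPM, in the Renilla library, a log2 ratio of 0.41 (0.38 to 0.44). Mki67, the antigen that coats mitotic chromosomes and marks proliferating cells, was at 134 CPM in the Jumonji library and 115 CPM in the Renilla library (0.22, 0.12 to 0.32). Top2a, the topoisomerase that untangles sister chromatids, was at 279 CPM in the Jumonji library and 265 CPM in the Renilla library (0.07, 0.01 to 0.14). Smc4, a condensin subunit, was at 460 CPM in the Jumonji library and 450 CPM in the Renilla library, within its interval. As a mean over maturation bands, Mki67 was at -0.57 and Smc4 at -0.03, and without the most mature cells Smc4 was at -0.01. The Mki67 mean holds a value of -2.29 from band 1. That value rests on 1 UMI in Jumonji cells, against 70 UMIs in Renilla cells, so the Mki67 mean is not read.

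Neighbouring cell cycle genes differed by similar amounts. Over all genes, 19.5% were more than 0.32 above 0 and 23.5% more than 0.32 below 0. In a list of 55 other mitosis genes the median log2 ratio was -0.06. Of that list, 6 (10.9%) were more than 0.32 above 0 and 14 (25.5%) more than 0.32 below 0. Its extremes were Psrc1 (0.62, 0.28 to 0.97) and Cdc25b (0.61, 0.23 to 0.99), which encode a spindle protein and a Cdk-activating phosphatase, and Gas2l3 (-0.87, -1.20 to -0.55) and Bub1b (-0.71, -0.96 to -0.46), a cytokinesis and a checkpoint gene. In a list of 42 S phase genes the median was -0.12, with 10 above 0 and 32 below. Of all genes, 56.2% were below 0. In the S phase list 5 (11.9%) were more than 0.32 above 0 and 10 (23.8%) more than 0.32 below 0. Pcna, the sliding clamp of DNA polymerase, was at 172 CPM in the Jumonji library and 131 CPM in the Renilla library (0.39), and Ccne2, a G1/S cyclin, was at 0.49. Ung, a DNA repair gene near the low end of that list, was at -0.71.

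Where the libraries parted was in how the module was spread over cells. In the Jumonji library the share of cells with a UMI was lower for most members, and the cells that had one held more. Cells were thinned at random to 5000 UMIs each, which kept 569 Jumonji and 605 Renilla cells and left out 6 Jumonji and 3 Renilla cells below that depth. At this equal depth, the share of cells with a UMI was lower in the Jumonji library for 30 members and higher for 10, with a median difference of -2.33 percentage points. Over all 8959 genes, 55.2% had a lower share there, with a median of -0.37 points. The number of UMIs in a cell that had any was higher in the Jumonji library for 31 of the 40 members and lower for 8, against 47.1% and 41.5% of all genes. Without thinning, where Jumonji cells were shallower, the share was lower for 39 of 40 members, with a median difference of -8.88 points, and for 68.9% of all genes, with a median of -2.67 points.

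Cks1b showed the widest gap. It was seen in 62.4% (58.3 to 66.4) of the Jumonji and 83.5% (80.3 to 86.3) of the Renilla cells at 5000 UMIs, and in 82.1% of Jumonji and 97.5% of Renilla cells before thinning. Birc5 was seen in 45.3% (41.2 to 49.5) of the Jumonji and 61.3% (57.3 to 65.2) of the Renilla cells, and Ube2c in 33.7% (29.9 to 37.8) of the Jumonji and 45.5% (41.4 to 49.5) of the Renilla cells. Top2a was seen in 48.0% (43.8 to 52.2) of the Jumonji and 57.4% (53.3 to 61.3) of the Renilla cells. Top2a, with the lower share in the Jumonji library, had the higher summed level there. Cells with Top2a held 2.62 UMIs of it on average in the Jumonji library and 2.13 UMIs in the Renilla library.

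To set a background beside these shares, they were also taken among the 20% of each library's cells with the fewest UMIs of the other 39 members. Free RNA was not measured, and the share in these cells holds both free RNA and any expression left in them. Cdk1 was seen there in 2.54% of the Jumonji and 13.6% of the Renilla cells, against 32.2% of all Jumonji and 33.7% of all Renilla cells. Birc5 was seen there in 5.08% of the Jumonji and 28.3% of the Renilla cells, Cks1b in 27.0% of the Jumonji and 70.6% of the Renilla cells, Top2a in 9.09% of the Jumonji and 28.5% of the Renilla cells, and Ube2c in 5.83% of the Jumonji and 14.6% of the Renilla cells. The excess of the share in all cells over that in these cells was larger in the Jumonji library for Cks1b, Birc5 and Top2a and smaller for Ube2c. These cells were chosen by the module within each library. By all members together, the poorest 20% held 5.58 member UMIs per cell in the Jumonji library and 8.99 in the Renilla library. The backgrounds are thus unlike and the excess is not read. The lower shares alone are not read as fewer expressing cells either. Smc4 was seen in 83.5% of such Jumonji cells and 85.9% of such Renilla cells, near its share in all cells (83.0% of Jumonji and 86.0% of Renilla cells) and so could not be told apart from the background by this measure. The cells with the fewest UMIs of all members had a median of 13926 UMIs before thinning in the Jumonji library and 21195 UMIs in the Renilla library.

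At the other end, among the 20% of cells richest in the other members, 30 members had log2 ratios above 0 and 10 below, with a median of 0.32. No count over all genes is given for these cells, so these counts have no background beside them. Top2a was at 0.70 (0.46 to 0.94) there, Cdk1 at 0.77 (0.41 to 1.13), Nusap1 at 1.05 (0.58 to 1.52) and Ccna2, which was below 0 over all cells, at 0.66 (0.23 to 1.08). Cks1b stayed below 0 at -0.42 (-0.64 to -0.20). By all members together, the richest 20% held 52.6 member UMIs per cell in the Jumonji library and 42.6 in the Renilla library, and the poorest 20% held 5.58 in the Jumonji library and 8.99 in the Renilla library. Cells were chosen by the module itself here, so these values describe a wider spread of the module over Jumonji cells and are not a separate result.

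Counting members per cell gave the same picture. The median Jumonji cell had a UMI of 8 members (quartiles 4 and 15) and the median Renilla cell of 11 members (quartiles 7 and 15). At most 3 members were found in 98 Jumonji cells (17.2%, 14.2 to 20.6) and 23 Renilla cells (3.8%, 2.42 to 5.65). At least 10 members were found in 259 Jumonji cells (45.5%, 41.4 to 49.7) and 347 Renilla cells (57.4%, 53.3 to 61.3). The upper end of the distribution did not shrink: at least 20 members were found in 40 Jumonji cells (7.03%, 5.07 to 9.45) and 34 Renilla cells (5.62%, 3.92 to 7.76). Member UMIs per cell averaged 25 in the Jumonji library and 24.3 in the Renilla library, with standard deviations between cells of 17.6 and 12.5 UMIs.

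**Figure D2:**
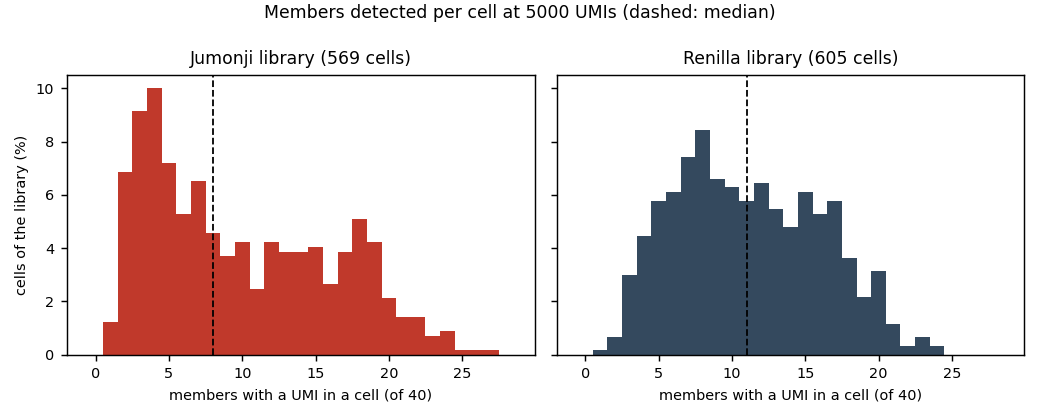
Number of the 40 members with at least 1 UMI in a cell, as a percentage of the 569 Jumonji cells (left) and 605 Renilla cells (right), every cell thinned to 5000 UMIs. The Jumonji library has more cells at the low end, and its median (dashed) is 8 members against 11 in the Renilla library.

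Members varied together across cells in both libraries, more so in the Jumonji library. The median Pearson correlation of log values over the 780 pairs of members was 0.16 in 569 Jumonji cells and 0.09 in 605 Renilla cells, and close to 0 over all gene pairs in both. The strongest pair was Top2a with Mki67 in the Jumonji library (0.54) and Ccnb1 with Ube2c in the Renilla library (0.44). These values come from sparse counts and rise with depth, to medians of 0.22 in the Jumonji library and 0.16 in the Renilla library at 10000 UMIs. All pairs share cells and depth, so the correlations are given as a description.

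Members kept a like rank in both libraries. The mean correlation of a member with the other 39 ranked the members alike (Spearman rho 0.88 across 40 members). Top2a, Birc5, Hmgb2 and Ube2c had the highest mean correlations in the Jumonji library (0.26 to 0.29), and Ube2c, Hmgb2, Birc5 and Cenpf in the Renilla library (0.15 to 0.21). The lowest were Smc4 (0.02) and Ckap2 (0.05) in the Jumonji library, and Ckap2 and Smc4 (both 0.03) in the Renilla library. The relation to S phase differed: the summed members and the S phase list correlated at 0.12 across Jumonji cells and -0.29 across Renilla cells. With the late myeloid list the members correlated at -0.15 across Jumonji cells and 0.04 across Renilla cells.

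To order the members along the cycle, each cell was given an angle from its score for the S phase list (0 degrees) and for the members (90 degrees), both standardised within a library. Each member was placed at the mean angle of its UMIs, with itself left out of the score. The orders were alike (rho 0.79 across the 40 members, 0.89 at 10000 UMIs). Ndc80, Hmgb2 and Smc4 came first in the Jumonji library and Ndc80, Ckap2 and Ttk in the Renilla library. Cenpf, Cenpa and Sapcd2 came last in the Jumonji library, and Cenpa, Kif2c and Ccnb2 in the Renilla library. Angles compare members within a library and are not on a common scale between libraries.

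Top2a, Hmgb2 and Cdk1 were among the 10 members placed first in both libraries, and Ccnb1, Cdc20, Ube2c and Cenpa among the 10 placed last. Top2a was at 67.9 degrees in the Jumonji library and 87.0 degrees in the Renilla library, and Cdk1 was at 70.2 degrees in the Jumonji library and 89.2 degrees in the Renilla library. Ccnb1 was at 96.9 degrees in the Jumonji library and 119 degrees in the Renilla library, and Cenpa was at 105 degrees in the Jumonji library and 123 degrees in the Renilla library. For levels in 60-degree bins of the angle, the member score kept every member, the one shown included. High levels near 90 degrees and low ones at 240 degrees thus follow in part from how the angle was made. Ube2c reached 559 CPM in Jumonji cells and 442 CPM in Renilla cells in the bin centred at 120 degrees, and 20.1 CPM in Jumonji cells and 35.4 CPM in Renilla cells at 240 degrees. In 60-degree bins, 25 members in each library peaked at 120 degrees, 18 of them in both libraries. Smc4 had its highest bin at 540 CPM in Jumonji cells and 514 CPM in Renilla cells and its lowest at 388 CPM in Jumonji cells and 344 CPM in Renilla cells, the flattest profile of those printed here.

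**Figure D3:**
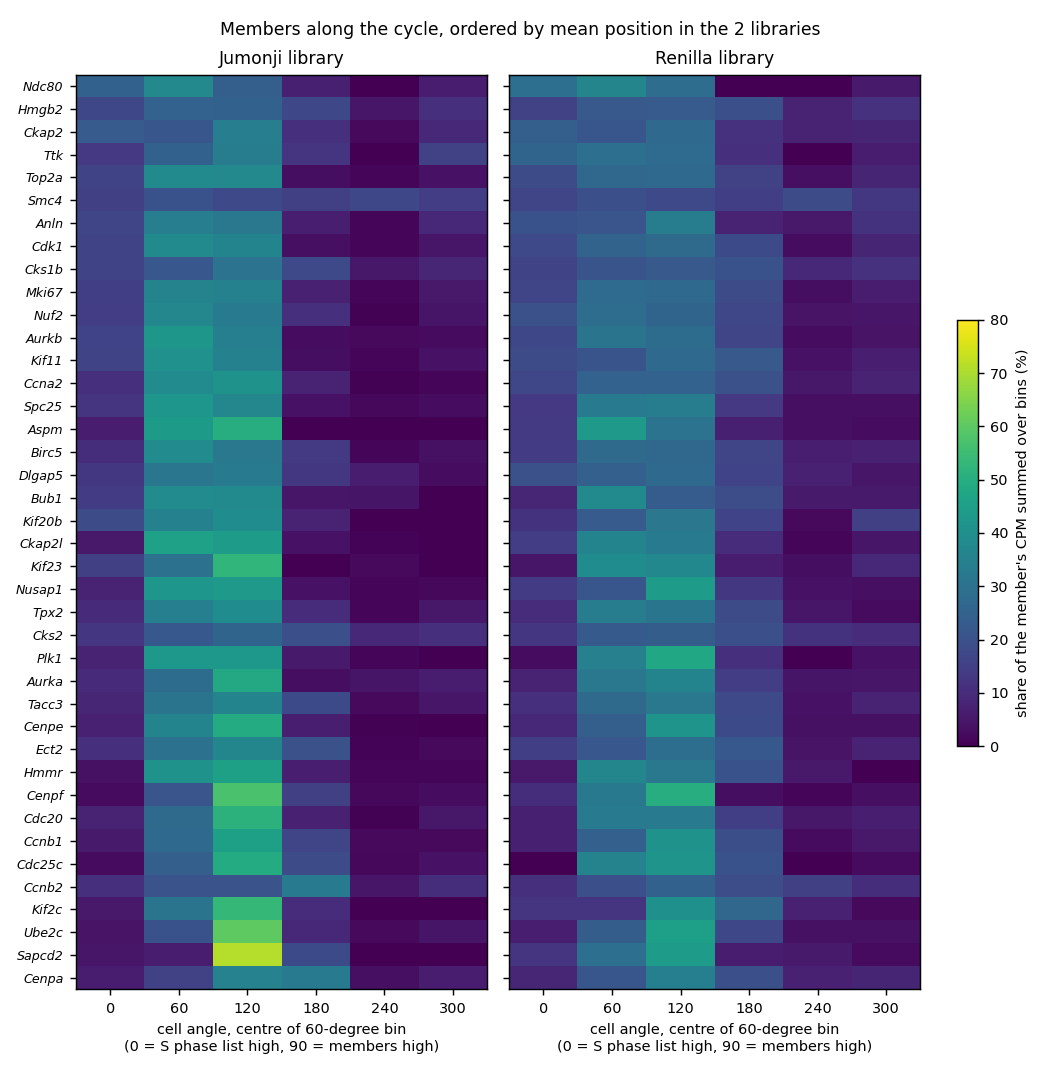
Share of each member's level, in CPM summed over bins, that falls in each 60-degree bin of cell angle in Jumonji cells (left) and Renilla cells (right), members ordered by mean position. Colour climbs toward the bins at 60 and 120 degrees, early members such as Ndc80 lie at the top and late ones such as Cenpa at the bottom, and Smc4 is nearly even. The angle was made from all members, the one shown included, so the climb follows in part from the axis.

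Within each library the bins held cells of different module levels, which follows from the angle, as the member score is part of it. As scores were standardised within a library, the shares of cells per bin are not compared between libraries. The bin at 240 degrees, low in both scores, held 159 Jumonji cells (27.9%, 24.3 to 31.8) and 96 Renilla cells (15.9%, 13.0 to 19.0). The bin at 120 degrees, high in members, held 118 Jumonji cells (20.7%, 17.5 to 24.3) and 173 Renilla cells (28.6%, 25 to 32.4). In those bins the cells had 7.97 member UMIs in the Jumonji library and 11.4 in the Renilla library at 240 degrees, and 46.5 in the Jumonji library and 37.9 in the Renilla library at 120 degrees. The late myeloid list was at 28.8 UMIs per cell in Jumonji cells of the 240-degree bin and at 11.9 to 17.0 UMIs in the other Jumonji bins. In Renilla cells it was at 3.75 UMIs at 240 degrees and at 2.91 to 4.73 UMIs in the other bins.

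Late members tended to have lower ratios between libraries than early ones, more clearly by Jumonji than by Renilla positions. Among the 10 members placed last, the median log2 ratio was -0.26 by Jumonji positions and -0.25 by Renilla positions, with 7 of 10 below 0 by either. Among the 10 placed first it was 0.02 by Jumonji positions and 0.01 by Renilla positions. Across the 40 members, position and ratio had a rho of -0.41 by Jumonji positions and -0.27 by Renilla positions, both -0.41 at 10000 UMIs, and -0.25 and -0.24 when members were placed by their correlation with late mitotic genes. With each member's mean level subtracted from the weights, the rho was -0.37 by Jumonji positions and -0.22 by Renilla positions, and the last 10 by Renilla positions had a median of -0.07, with 5 of 10 below 0. Of all genes, 56.2% were below 0. Position and ratio were read from the same cells, so this is a description. Cks1b, lower in the Jumonji library, ranked 11 in both orders, while Ccnb2, higher in the Jumonji library, ranked 21 in the Jumonji order and 40 in the Renilla order.

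**Figure D4:**
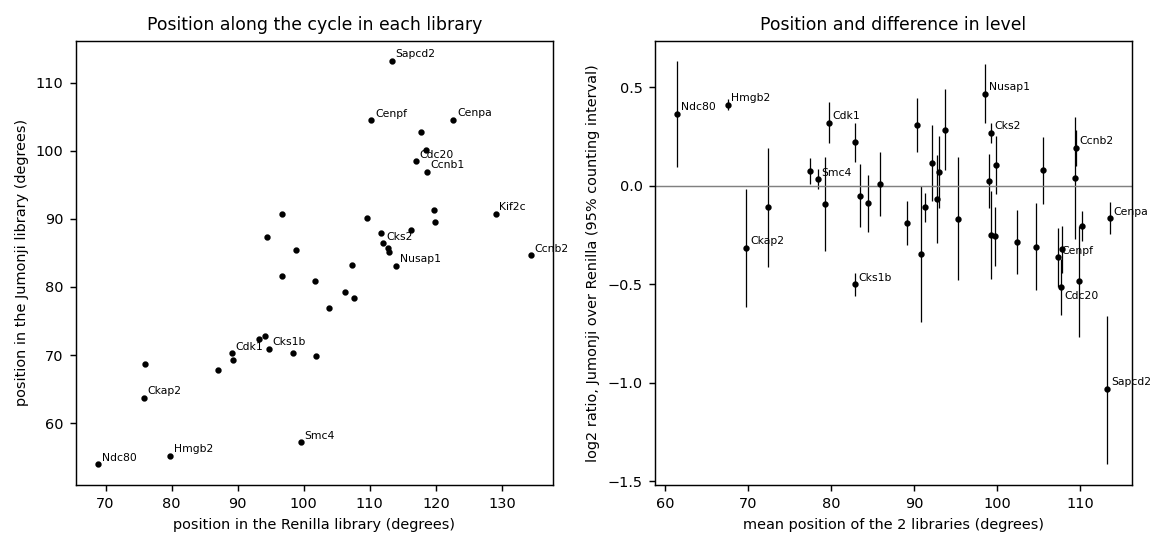
Position of each member along the cycle in the Jumonji library against the Renilla library (left, degrees), and the log2 ratio of the libraries against the mean position (right, 95% counting intervals). Points on the left climb together (rho 0.79), and the late members Cdc20, Cenpf and Sapcd2 on the right lie below 0 while Ndc80 and Hmgb2 lie above.

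Maturation was scored by the 12 late myeloid genes, and the cells of both libraries together were cut into 5 bands at the quintiles of the score. Cells with equal scores stayed together, so the bands differ in size. The bands are ranges of a score, not cell types. Bands 1 to 5, lowest to highest, held 10, 59, 89, 188 and 223 Jumonji cells, and 143, 244, 157, 48 and 13 Renilla cells. Mean member UMIs per cell in these bands were 23.9, 26.1, 27.0, 28.4 and 21.0 in Jumonji cells, and 23.7, 24.4, 24.7, 23.8 and 24.8 in Renilla cells. The mean thus climbed slightly to band 4 and was lowest in band 5 in the Jumonji library. In the Renilla library the mean lay between 23.7 and 24.8 UMIs in every band. The medians did not climb, at 27.5, 26, 26, 24.5 and 11 in Jumonji cells and 23, 23, 22, 18 and 18 in Renilla cells. At 10000 UMIs the order differed: bands 1 to 5 held a mean of 41.6, 52.3, 56.3, 53.4 and 47.7 member UMIs in Jumonji cells, with band 1 (20 cells) lowest, and 47.0, 47.9, 49.5, 52.3 and 47.5 in Renilla cells. The medians there were 36, 52.5, 54, 53 and 32 in Jumonji cells and 45, 44.5, 47, 44 and 45 in Renilla cells.

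**Figure D5:**
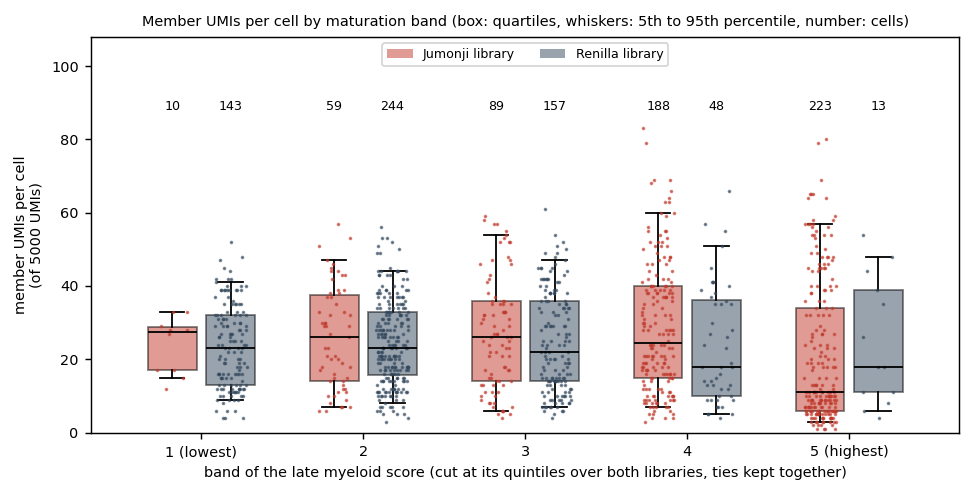
Member UMIs per cell, of 5000 UMIs, by maturation band in Jumonji and Renilla cells, where boxes show quartiles, whiskers the 5th to 95th percentile, points the cells and numbers the cell counts. Band 5 of the Jumonji library has the lowest median, 11 UMIs, with cells up to high values.

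Cells with few member transcripts lay mostly in the most mature band of the Jumonji library, where band 5 held 72 of the 98 cells with at most 3 members, against 3 of 23 such cells in the Renilla library. In band 5 the median cell had 11 member UMIs in the Jumonji library and 18 in the Renilla library, and at most 3 members were found in 32.3% (26.2 to 38.9) of the 223 Jumonji cells and 23.1% (5.04 to 53.8) of the 13 Renilla cells. In the other bands together, at most 3 members were found in 7.51% (4.97 to 10.8) of the 346 Jumonji cells and 3.38% (2.08 to 5.17) of the 592 Renilla cells, and member UMIs averaged 27.5 per cell in Jumonji cells and 24.3 in Renilla cells. The quartiles in band 5 were 6 and 34 UMIs in Jumonji cells, a range that spans cells nearly without the module and cells rich in it. Band 5 cells were also shallower before thinning, with a median of 15029 UMIs in the Jumonji library and 17978 UMIs in the Renilla library. Depth was made equal by thinning, and whether shallow cells differ in other ways was not tested.

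Other ways of setting mature cells apart differed in what they gave. With bands cut within each library, the highest held 19.4 and the lowest 26.6 member UMIs in Jumonji cells, and the highest 24.6 and the lowest 24.5 in Renilla cells. Cells with a UMI of Ctss, a lysosomal protease of monocytes and macrophages, numbered 115 in the Jumonji library and 10 in the Renilla library, and held 17.1 member UMIs in Jumonji cells and 13.3 in Renilla cells. Cells without Ctss held 27.0 member UMIs in Jumonji cells and 24.5 in Renilla cells. At most 3 members were found in 40.9% (31.8 to 50.4) of Ctss-positive and 11.2% (8.48 to 14.5) of Ctss-negative Jumonji cells. In the Renilla library they were found in 2 of the 10 Ctss-positive cells (2.52% to 55.6%) and in 3.53% (2.20 to 5.34) of the Ctss-negative cells.

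Clusters were found without the member and S phase genes, ribosomal and mitochondrial genes, and genes at least 1.5-fold apart between libraries. They carry numbers, since a rebuilt cluster may not match a cell type. Cluster 1, with the most late myeloid UMIs per cell over both libraries (22.2; 27.4 in Jumonji cells and 4.6 in Renilla cells), held 206 Jumonji and 60 Renilla cells, with 9.73 member UMIs in Jumonji cells and 11.1 in Renilla cells. Cluster 4 was nearly as rich in late UMIs (21.2 in its 144 Jumonji cells and 11.0 in its 49 Renilla cells, the most of any cluster in the Renilla library), yet held 35.3 member UMIs in Jumonji cells and 33.7 in Renilla cells. Many late myeloid UMIs thus went with few members in cluster 1 and with many in cluster 4. Other mitosis genes could enter this clustering, so a split of clusters by member level may follow in part from its input. Cluster 6 was the richest in members, with 43.1 UMIs in its 98 Jumonji cells and 42 in its 13 Renilla cells. When genes that vary with the members were left out as well, a cluster of 116 Jumonji and 22 Renilla cells held 6.69 member UMIs in Jumonji cells and 9.91 in Renilla cells, and at most 3 members were found in 64.7% (55.2 to 73.3) of its Jumonji cells and 50.0% (28.2 to 71.8) of its Renilla cells. Another, of 144 Jumonji and 63 Renilla cells, had 23.7 late UMIs in Jumonji cells and 9.32 in Renilla cells, and held 34.2 member UMIs in Jumonji cells and 26.7 in Renilla cells. The cluster poor in members made up 20.4% (17.1 to 23.9) of the Jumonji cells and 3.64% (2.29 to 5.45) of the Renilla cells. With 1 library a condition, a cluster held mostly by 1 library cannot be told apart from that library.

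Within bands, the members' ratios did not share a direction. The median log2 ratio over the 40 members was -0.04 in band 2, -0.07 in band 3 and 0.31 in band 4. Bands 1 and 5 gave 0.28 and -0.50, but some members had 0 UMIs in 1 library there, and the ratio then used 3 UMIs. This could turn the sign: in band 1 Aspm was at 2.84 with 0 UMIs in Jumonji and 6 in Renilla cells. In band 5 Ccnb1 was at -0.10 with 48 UMIs in Jumonji and 0 in Renilla cells. The medians of bands 1 and 5 are therefore not read. Bands 1 and 5 rest on 10 Jumonji and 13 Renilla cells and on few UMIs per gene. Cks1b was below 0 in all 5 bands at -0.55 to -0.23. Its level in band 5 was 180 CPM in Jumonji cells and 215 CPM in Renilla cells, below that of band 3 at 326 CPM in Jumonji cells and 476 CPM in Renilla cells. Hmgb2 was above 0 in bands 1 to 4, at 0.33 to 0.47, and at -0.27 in band 5. Cdc20 was below 0 in bands 1 and 2 and above 0 in bands 3 and 4. In band 5 it had 36 UMIs in Jumonji cells and 0 in Renilla cells.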

How the data were processed

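The deposited values are counts of UMIs per gene and cell barcode, 1 matrix for the Jumonji and 1 for the Renilla library. Library chemistry, per the labels, was Chromium 3′ version 2 of 10x Genomics. Cell Ranger 1.3.1 and the build mm10 were used, per the submitters' processing notes. Of the annotation release, the strand setting and the way barcodes were called, the sources used here say nothing.

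Barcodes were kept from 500 genes up and with mitochondrial UMIs of no more than 10%. Scrublet marked 4 Jumonji (0.696%) and 10 Renilla cells (1.64%) as doublets, which were kept. UMIs were summed over kept cells and scaled to CPM, since a sum over cells is the unit that 1 library gives. Ratios carry exact conditional binomial intervals, sums exact Poisson intervals and shares exact Clopper-Pearson intervals, at 95%. Where a gene had 0 UMIs in 1 library, or in the cells of a band in 1 library, its ratio used 3 UMIs there. Per-cell values used cells thinned to 5000 UMIs. Clusters used scanpy 1.11.5 and leidenalg 0.10.2 (2000 variable genes, 30 components, 15 neighbours, resolution 0.6). Other tools were Python 3.11.15, numpy 2.4.6, scipy 1.17.1, pandas 2.3.3 and matplotlib 3.10.9. Intervals and ordering were checked on simulated data. Thinning was checked on some Renilla cells, only for leaving each at 5000 UMIs.

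The members, gene lists and tests were chosen with earlier results of these data known. Full values were to be given for the 12 members with most UMIs, the 6 highest and 6 lowest by the interval bound nearest 0, the 3 first and 3 last along the cycle, and named regulators of the cycle. For the other lists the rule names the 2 highest and 2 lowest genes. Some genes that these rules or lists hold are not reported here. Alternatives were other cell filters, scalings, depths, bands, clusters and orderings.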

Additional observations from a re-analysis of the deposited data

How the results depend on the processing

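Leaving out a replicate was not possible with 1 library a condition. No paired analysis was possible because each condition had 1 library and no replicate numbers. No barcode was shared, so leaving shared barcodes out removed nothing. Depth limits shares of cells and genes with few UMIs.

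Of the main values, 98 recomputed under an alternative stayed within their error or 1.5 times, 26 moved and 4 reversed. The causes were not tested. The counts of members more than 0.32 above and below 0 (log2) were 7 and 4 with scaling to the median gene, and 7 and 4 without the highest maturation band. As a mean over bands, 7 members were more than 0.32 above 0 and 2 were 1.5-fold higher. These 2, Ckap2l and Aspm, had 0 UMIs in Jumonji cells of band 1, where the ratio used 3 UMIs, so the counts are not read. With cells thinned to 5000 UMIs, 1 member was 1.5-fold higher and 4 were 1.5-fold lower. The log2 ratio of the summed members stayed above 0, at 0.15 with scaling to the median gene, 0.042 with thinned cells, 0.16 without the highest band and 0.052 as a mean over bands. At 10000 UMIs, at least 10 members were found in 61.3% of Jumonji and 79.1% of Renilla cells, at most 3 in 6.54% of Jumonji and 1.04% of Renilla cells, and the order had a rho of 0.89. Chosen after seeing the data, 54.3% of Jumonji cells outside the highest band and 49.8% of those without Ctss had at least 10 members, and 7.51% and 11.2% of them had at most 3.

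The member level of the highest over the lowest band, a log2 ratio of -0.19 in the Jumonji library and 0.07 in the Renilla library, had no stable sign. At 10000 UMIs it was 0.20 in the Jumonji library (reversed) and 0.017 in the Renilla library. A second thinning draw (chosen after seeing the data) gave -0.40 in the Jumonji library and 0.046 in the Renilla library, and bands cut within each library gave -0.45 in the Jumonji library and 0.0092 in the Renilla library. Cells with over cells without Ctss gave -0.66 in the Jumonji library and -0.88 in the Renilla library (reversed). The cluster with most over that with fewest late myeloid UMIs, ranked over both libraries pooled, gave -1.81 in the Jumonji library and -1.73 in the Renilla library (reversed), and -2.15 and -1.71 (reversed) when genes that vary with the members were left out, also chosen after seeing the data. In the Renilla library alone, another cluster held the most late UMIs, and it was rich in members. Among single members, recomputed after seeing the data, Aspm reversed, at 0.70 as a mean over bands. Its band 1 value of 2.84 used 3 UMIs in place of 0 in Jumonji cells, against 6 UMIs in Renilla cells. The reversal is therefore not read.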

Other observations

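Genes outside the lists varied with the module too. Ranked by the lower of their mean correlations with the members in the libraries, the first genes of no list were Tubb5, a beta-tubulin (0.26 in the Jumonji library and 0.13 in the Renilla library), and Calm2, a calmodulin gene (0.14 in the Jumonji library and 0.13 in the Renilla library). Next came Arl6ip1, Ube2s, which extends ubiquitin chains for the anaphase-promoting complex, and 2810417H13Rik. Also near the top were Hn1, the histone gene Hist1h2ap, the alpha-tubulin Tuba4a and Fam64a. Ube2s was at 267 CPM in the Jumonji library and 198 CPM in the Renilla library, a log2 ratio of 0.43 (0.36 to 0.51), on the other side of 0 from Ube2c and Cdc20. Arl6ip1 was at 193 CPM in the Jumonji library and 143 CPM in the Renilla library (0.44, 0.35 to 0.52). Tubb5 was at 815 CPM in the Jumonji library and 908 CPM in the Renilla library (-0.16, -0.19 to -0.12).

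The barcodes left out by the limits on genes and mitochondrial UMIs numbered 77 in the Jumonji library and 43 in the Renilla library. In them the members summed to 4109 CPM (3917 to 4307) in the Jumonji library and 4937 CPM (4667 to 5219) in the Renilla library.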
